A study of Mus musculus with 6 samples.

Results

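The Dickkopf family of secreted WNT regulators was measured by all probe sets (the groups of short probes that report a transcript) whose only annotated gene was Dkk1, Dkk2 or Dkk3. These were 5 of the 30618 probe sets with expression values, 2 for Dkk1, 1 for Dkk2 and 2 for Dkk3, and 3 of 13817 genes. The study asked which genes differ in the knee joints of Frzb-/- mice, which lack frizzled-related protein, itself a secreted WNT antagonist. The tibial articular cartilage and subchondral bone were dissected as a single piece, and RNA from a single joint was hybridised to each of 6 arrays. The compared groups were the Frzb-/- mice (animals 14 and 17) and the wild-type mice (animals 6-1, 8-1 and 9-1), with animal 6, also labelled Frzb-/-, shown apart. All 6 mice were males aged 6 weeks on the C57Bl/6J background, with no treatment given in the sources, into which the Frzb-/- line had been backcrossed for over 10 generations.

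Animal 6 was kept apart because its array stood with the wild-type arrays, as earlier results of these data had shown. Its correlation with them over all probe sets was 0.983 to 0.991, against 0.940 to 0.957 with the arrays of animals 14 and 17. The study reported that a presumed Frzb-/- mouse clustered with the wild-type mice, was re-genotyped as heterozygous and was left out. Its animal number is not given in the sources used here. Of the arrays labelled Frzb-/-, only that of animal 6 stood with the wild-type arrays, so it matches that description. Animals 14 and 17 had correlations of 0.938 to 0.967 with the wild-type arrays. Frzb itself had log2 expression values of 7.02 and 6.42 in animals 14 and 17, 6.93 in animal 6, and 10.02, 10.79 and 10.16 in the wild-type mice, so by this measure animal 6 lay with animals 14 and 17. Whether the Frzb probe sets lie within the deleted part of the gene is not given in the sources used here. Chondrocyte markers averaged 12.0 and 12.3 in the Frzb-/- mice and 12.0 to 12.5 in the wild-type mice, and osteoblast and osteocyte markers 10.9 and 11.2 in the Frzb-/- mice and 11.1 to 11.3 in the wild-type mice.

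WNT ligands act on cells through Frizzled receptors and the co-receptors LRP5 and LRP6, and in the canonical pathway this stabilises beta-catenin, which switches on target genes together with TCF and LEF factors. Dkk1 binds LRP5 and LRP6, blocks canonical signalling and is itself a target gene of the pathway. In bone it is made by osteoblasts and osteocytes and restrains bone formation. Dkk2 binds the same co-receptors but can block or activate the pathway depending on the cell, and Dkk3 is a divergent member that does not bind LRP6 in the manner of Dkk1. Frzb and the other secreted frizzled-related proteins act instead by binding the WNT ligands.

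The Dkk genes lie on different chromosomes. On the mouse assembly GRCm38.p6, Dkk1 lies on chromosome 19 from 30545876 to 30549496, Dkk2 on chromosome 3 from 132085266 to 132180304 and Dkk3 on chromosome 7 from 112116019 to 112159482. The sequence upstream of the outermost annotated start is shown for Dkk1, a known target of TCF and LEF factors, and for Dkk2, which changed in the opposite direction. Sequences are from RefSeq, which matched 2 of the 3 genes, and run 5′ to 3′ on the strand of the gene. Capitals mark the TCF/LEF core letters CTTTG on either strand (CAAAG where the match is on the opposite strand) and the TATA box letters TATAAA on the strand of the gene.
Dkk1, chr19:30549497-30549746, minus strand: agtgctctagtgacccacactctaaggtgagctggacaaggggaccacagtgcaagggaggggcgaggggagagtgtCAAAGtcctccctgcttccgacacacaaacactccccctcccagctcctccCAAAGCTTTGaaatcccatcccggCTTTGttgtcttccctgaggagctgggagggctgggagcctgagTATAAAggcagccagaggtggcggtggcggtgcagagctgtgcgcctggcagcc
Dkk2, chr3:132085042-132085265, plus strand: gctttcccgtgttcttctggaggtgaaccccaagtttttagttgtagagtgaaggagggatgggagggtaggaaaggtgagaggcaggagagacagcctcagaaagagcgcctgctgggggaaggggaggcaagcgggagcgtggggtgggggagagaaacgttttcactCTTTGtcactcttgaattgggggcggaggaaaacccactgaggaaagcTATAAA

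Positions were counted from the start site of the RefSeq promoter table, which is 30549496 for Dkk1, the annotated end of the gene from which it is read, and 132085292 for Dkk2, inside the gene as annotated from 132085266. The printed Dkk2 sequence therefore stops short of the site from which its positions are counted. The Dkk1 sequence held the CTTTG core 4 times, beginning 173, 122, 117 and 98 bases before its start site, and the Dkk2 sequence held it at 1 place, 80 bases before its own. The pair at 122 and 117 bases in Dkk1 lies side by side on opposite strands. Both sequences had a TATAAA match, beginning 54 bases before the start site of the table in Dkk1 and 32 bases before it in Dkk2, where the match is directly next to the outermost annotated start. The longer form CTTTGAT was in neither window on either strand. Over 32851 promoter windows of 300 bases, 53.9% held CTTTG on either strand, 3.73% held CTTTGAT on either strand and 8.32% held TATAAA on the strand of the gene. These letter matches are a description of the sequence and were not tested for binding.

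The Dkk genes moved in opposite directions in Frzb-/- tibiae. Dkk2 and Dkk3 were higher than in wild-type mice, by 4.38-fold for Dkk2 and by 3.12-fold and 4.49-fold at the Dkk3 probe sets. Dkk1 was 2.06-fold lower at its brighter probe set. A probe set was counted as higher or lower when limma's two-sided moderated test, adjusted over all probe sets by Benjamini-Hochberg, gave a p under 0.01 and the log2 fold change exceeded 1 in size, the study's own thresholds. By this rule 717 probe sets (2.34%) were higher in Frzb-/- mice and 1558 (5.09%) were lower, while of the 5 Dkk probe sets 3 were higher and 1 was lower. Counting each gene at its brightest probe set (highest mean of all 6 mice), 418 genes (3.03%) were higher and 832 (6.02%) were lower, and Dkk2 and Dkk3 were among the higher and Dkk1 among the lower ones. In a mixed tissue, fewer cells of a type and less RNA per cell cannot be told apart.

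**Figure D1:**
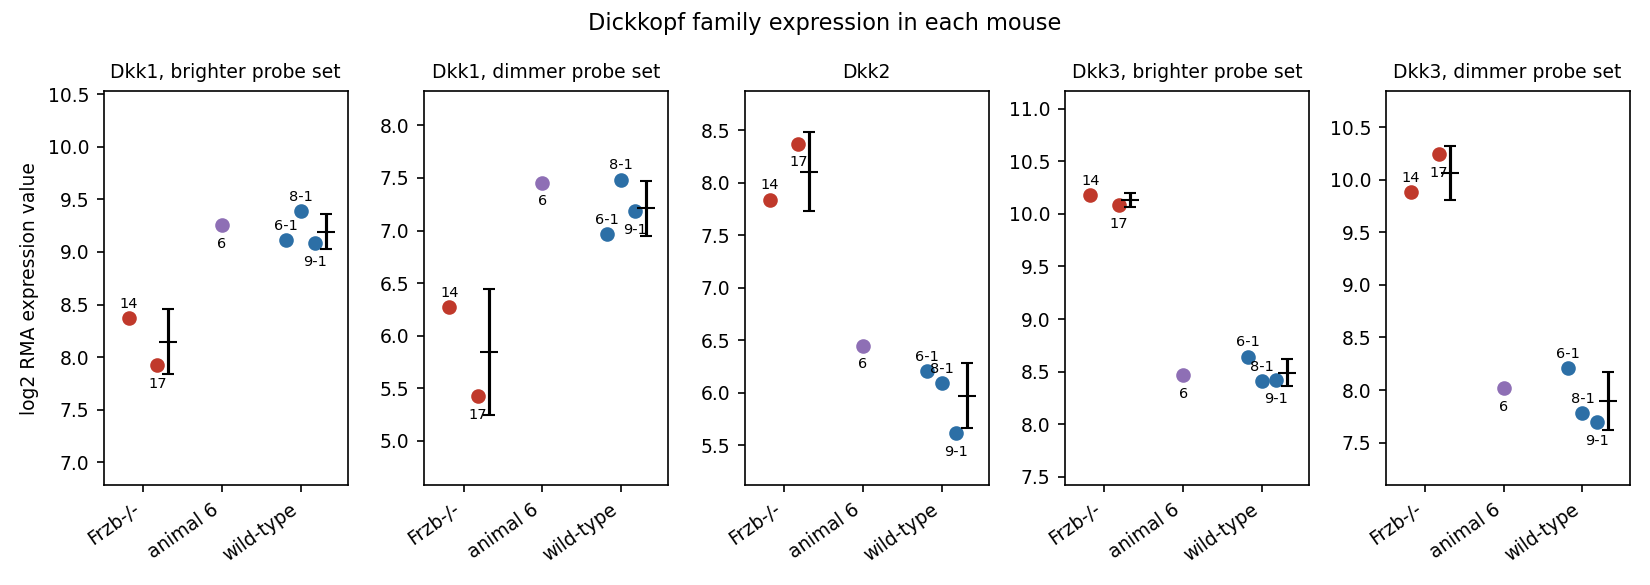
Log2 RMA expression value (vertical axis) of each Dickkopf probe set in each of the 6 mice, with the animal number beside the point. Bars beside the points of the 2 Frzb-/- mice and the 3 wild-type mice are the mean ± SD. All panels span the same log2 range. Dkk1 lies lower and Dkk2 and Dkk3 lie higher in both Frzb-/- mice than in every wild-type mouse, and animal 6 lies near the wild-type mice. Such separation of 2 from 3 mice was not counted over all probe sets.

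At the brighter Dkk1 probe set (1420360_at), log2 values were 8.37 and 7.93 in Frzb-/- mice 14 and 17, 9.25 in animal 6, and 9.11, 9.39 and 9.08 in wild-type mice 6-1, 8-1 and 9-1. Both Frzb-/- mice lay below all wild-type mice, with 0.71 between the nearest animals of the groups. How many of all probe sets separate the groups in this way was not counted. The mean was 8.15 ± 0.31 in Frzb-/- mice (SD, n = 2) and 9.19 ± 0.17 in wild-type mice (SD, n = 3). The log2 fold change was -1.05 (SE 0.17, 95% interval -1.46 to -0.63, limma adjusted p = 0.00659), which is just past the fold threshold.

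The dimmer Dkk1 probe set (1458232_at) had log2 values of 6.27 and 5.42 in Frzb-/- mice, 7.46 in animal 6, and 6.96, 7.48 and 7.18 in wild-type mice. The 2 Frzb-/- mice were 5.85 ± 0.60 (SD) against 7.21 ± 0.26 in the 3 wild-type mice. The log2 fold change of -1.36 (SE 0.27, 95% interval -2.00 to -0.73, limma adjusted p = 0.0117) was larger than at the brighter probe set but did not pass. Animal 17 had the lowest Dkk1 value of the 6 mice at both probe sets. The brighter probe set exceeded the dimmer one by 2.10 and 2.50 in Frzb-/- mice, 1.80 in animal 6 and 1.90 to 2.15 in wild-type mice.

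Dkk2 (1420512_at) had log2 values of 7.84 and 8.37 in Frzb-/- mice, 6.45 in animal 6, and 6.21, 6.09 and 5.62 in wild-type mice. The groups were 1.63 apart at their nearest animals. Wild-type Dkk2 lay below the median of every wild-type array (array medians were 7.32 to 7.45), whereas both Frzb-/- values lay above it. The mean was 8.10 ± 0.38 in Frzb-/- mice (SD, n = 2) and 5.97 ± 0.31 in wild-type mice (SD, n = 3), a log2 fold change of 2.13 (SE 0.23, 95% interval 1.59 to 2.67, limma adjusted p = 0.00157). Since no detection calls were available, whether Dkk2 was above background in the wild-type mice is unknown, and the fold change rests on those low values. The study removed probe sets called absent, but in which mice is not given, so the Frzb-/- mice alone may have kept Dkk2. In the study's RT-PCR of this tissue, Dkk2 showed only a trend to higher values, with an outlier. Its Western blots gave no reliable measure of the individual antagonist proteins.

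Of the 5 probe sets, the brighter Dkk3 probe set (1448669_at) varied least within each group. It had log2 values of 10.18 and 10.08 in Frzb-/- mice, 8.46 in animal 6, and 8.64, 8.41 and 8.42 in wild-type mice. The spread within either group was far below the 1.44 that separated the groups. The means were 10.13 ± 0.07 in Frzb-/- mice (SD, n = 2) and 8.49 ± 0.13 in wild-type mice (SD, n = 3), with a log2 fold change of 1.64 (SE 0.13, 95% interval 1.33 to 1.95, limma adjusted p = 0.000999).

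The dimmer Dkk3 probe set (1417312_at) gave 9.88 and 10.24 in Frzb-/- mice, 8.02 in animal 6, and 8.21, 7.78 and 7.70 in wild-type mice. The nearest animals of the groups were 1.67 apart. The log2 fold change was 2.17 (SE 0.20, 95% interval 1.70 to 2.63, limma adjusted p = 0.00113). The brighter probe set exceeded the dimmer by 0.30 and -0.16 in Frzb-/- mice, 0.44 in animal 6 and 0.43 to 0.73 in wild-type mice. This within-array difference was not tested.

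**Figure D2:**
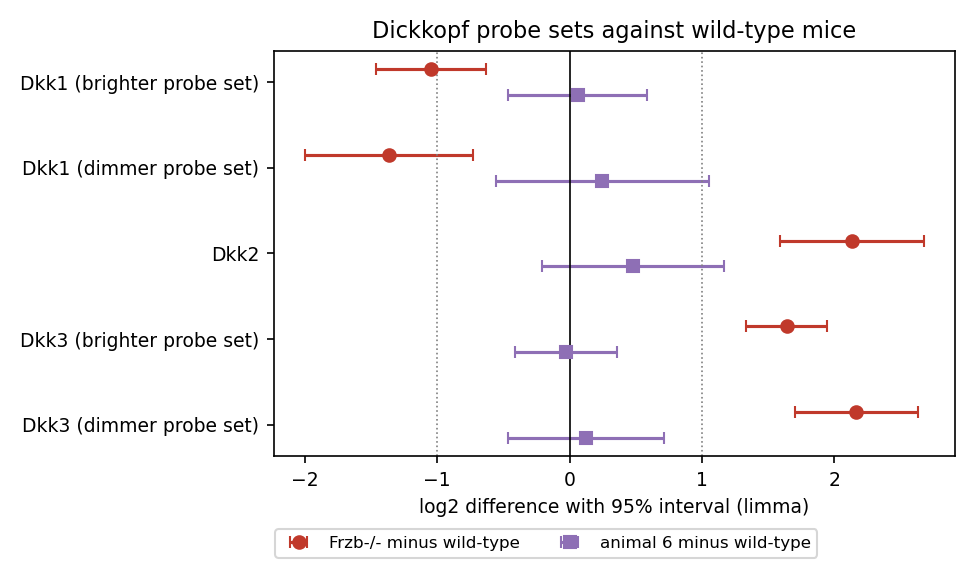
Log2 difference from wild-type mice (horizontal axis, limma, with 95% intervals) for each Dickkopf probe set, for the 2 Frzb-/- mice (circles) and for animal 6 (squares). Dotted lines mark a log2 fold change of 1 in either direction. No interval of the Frzb-/- mice reaches 0, and every interval of animal 6 includes 0.

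The Dkk values of animal 6 were close to wild-type, and its Frzb value was low. Animal 6 was kept apart because its whole array stood with the wild-type arrays, so this closeness is no separate result. When animal 6 was fitted separately, with its spread taken from the other groups, its difference from the wild-type mice was 0.06 and 0.25 at the Dkk1 probe sets, 0.48 at Dkk2, and -0.03 and 0.12 at the Dkk3 probe sets on the log2 scale. None passed (limma adjusted p = 0.779 to 0.992), and over all probe sets 0 passed, with 2197 at an unadjusted p under 0.05. Only at Dkk2 did animal 6 fall outside the range of the wild-type mice, with a 95% interval of -0.21 to 1.16 for the difference.

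Set against animal 6, the 2 Frzb-/- mice had a log2 difference of 1.67 and 2.04 at the Dkk3 probe sets, which both passed (limma adjusted p = 0.00461 and 0.0064). The differences at Dkk2 (1.65, limma adjusted p = 0.0163) and at the Dkk1 probe sets (-1.10 and -1.61, limma adjusted p = 0.0239 and 0.0274) did not. In this comparison 241 probe sets (0.787%) were higher in Frzb-/- mice and 979 (3.2%) were lower. It shares its Frzb-/- arrays with the comparison against wild-type mice and rests on 1 array on the other side. That array was kept apart for standing with the wild-type arrays, so these differences are no separate result.

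The calls on Dkk1 and Dkk2 were lost in some fits that left out 1 mouse. Such fits have fewer arrays: without wild-type animal 8-1, 298 of all probe sets were higher, against 717 as reported. Whether a lost call came from the mouse or from the smaller fit was not tested. Leaving out 1 mouse at a time kept Dkk3 past the thresholds at its brighter probe set in each of the 5 fits, with log2 fold changes of 1.59 to 1.72. Dkk2 ranged over 1.86 to 2.40 and lost its call only without Frzb-/- animal 17 (1.86, limma adjusted p = 0.0132), and so did the dimmer Dkk3 probe set (1.98, limma adjusted p = 0.0109). Dkk1 at its brighter probe set kept its call only without Frzb-/- animal 14 (-1.27, limma adjusted p = 0.00947), the setting in which its dimmer probe set also passed (-1.79, limma adjusted p = 0.00724).

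The brighter Dkk1 probe set lost its call without Frzb-/- animal 17 (-0.82, limma adjusted p = 0.0376) and without wild-type animal 8-1 (-0.95, limma adjusted p = 0.0287), where the fold change fell short of the threshold. It also lost it without wild-type animal 6-1 (-1.09, limma adjusted p = 0.0178) or 9-1 (-1.10, limma adjusted p = 0.0123). In these 2 fits the fold change was no smaller than as reported (-1.05). With animal 6 counted as Frzb-/- as labelled, the log2 fold changes were -0.68 for Dkk1, 1.58 for Dkk2 and 1.08 for Dkk3 (limma adjusted p = 0.434, 0.428 and 0.428), and 0 of 30618 probe sets passed, with 3534 at an unadjusted p under 0.05.

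**Figure D3:**
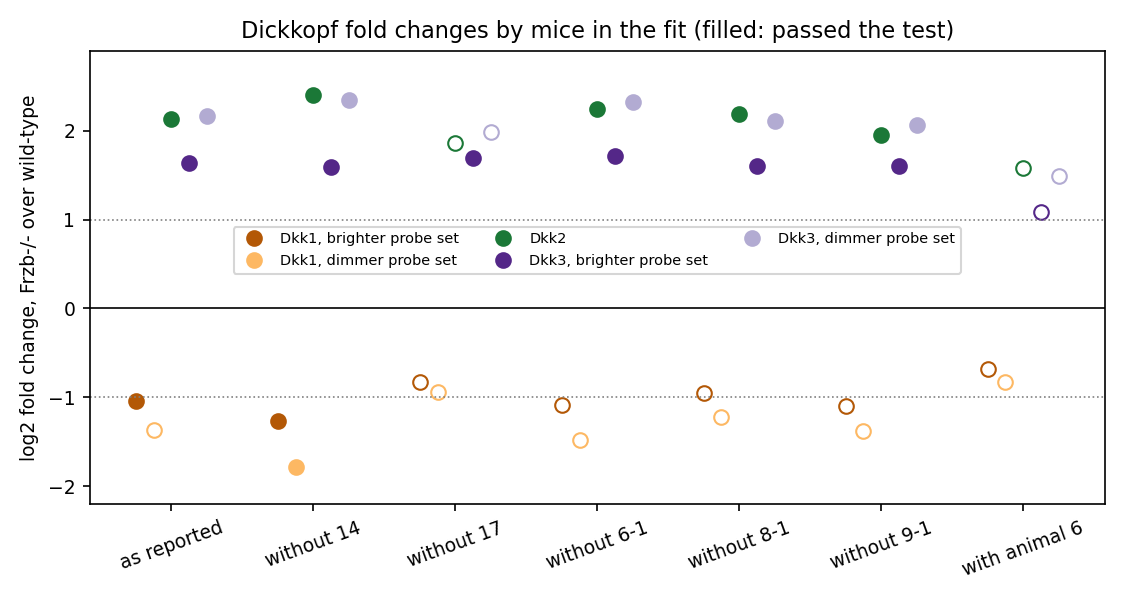
Log2 fold change of Frzb-/- over wild-type mice (vertical axis) for each Dickkopf probe set, in the fit as reported, without each mouse in turn, and with animal 6 added to the Frzb-/- mice. Filled points passed the thresholds and open points did not, and dotted lines mark a log2 fold change of 1 in either direction. The sign of each probe set is the same in all fits shown, the brighter Dkk1 probe set is filled in the reported fit and without animal 14 alone, and no point is filled with animal 6 added.

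Of the receptors to which the Dickkopf proteins bind, none passed. Lrp5 and Lrp6, the co-receptors of WNT ligands, had log2 fold changes of 0.12 ± 0.17 (SE) and 0.28 ± 0.12 (SE). Kremen1, a transmembrane protein that forms a complex with Dkk1 and LRP6 and removes LRP6 from the cell surface, had 9.51 and 9.35 in Frzb-/- mice, 8.42 in animal 6, and 8.75, 8.78 and 8.44 in wild-type mice. Its log2 fold change of 0.77 ± 0.15 (SE, limma adjusted p = 0.0112) missed both thresholds. The list held 4 genes, of which Kremen2 had no probe set of its own here, and of the 3 tested, 0 passed and 2 had an unadjusted p under 0.05. Their median log2 fold change was 0.28, against 0.04 over all 13817 genes.

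Other secreted WNT antagonists also moved in both directions. Of 10 tested genes, 3 were higher in Frzb-/- mice, 2 were lower and 5 did not pass, with a median log2 fold change of 0.31. The lower genes were Sost and Frzb, and the fall of Frzb is fixed by its deletion. Over all genes, 3.03% were higher and 6.02% were lower. The higher genes all encode secreted frizzled-related proteins, the family of Frzb. Sfrp1 rose by 1.19 ± 0.16 (SE), Sfrp2 by 1.89 ± 0.25 (SE) and Sfrp4 by 1.50 ± 0.20 (SE) on the log2 scale. All 3 Sfrp1 probe sets passed, but only the brightest was used here and in the fits that left out a mouse. In the study's RT-PCR of this tissue, Sfrp1 and Sfrp2 were significantly higher.

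Frzb, the deleted gene, was lower (-3.61 ± 0.27, SE), and so was Sost, which encodes sclerostin, an osteocyte protein that binds LRP5 and LRP6 as Dkk1 does. Sost had log2 values of 6.62 and 6.97 in Frzb-/- mice, 8.22 in animal 6, and 9.51, 9.70 and 8.90 in wild-type mice. Animal 6 lay between the groups for Sost, unlike for Dkk1, although its difference from wild-type mice did not pass (-1.15, limma adjusted p = 0.678). The Sost log2 fold change of Frzb-/- mice was -2.57 (SE 0.25, limma adjusted p = 0.00124).

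Those that did not pass were Sfrp5 (-0.10), Wif1 (0.50), which binds WNT ligands, Sostdc1 (0.66), a relative of sclerostin, Notum (-0.37), which removes the lipid from WNT ligands, and Draxin (0.13). The count of higher genes in this list was 3 as reported but 0 without Frzb-/- animal 14 (4 at an unadjusted p under 0.05, limma) or wild-type animal 8-1 (5 at that level), and 1 without Frzb-/- animal 17. Frzb passed in all 5 of these fits, and Sost in all but the one without animal 17 (-2.75, limma adjusted p = 0.0108). Sfrp1, Sfrp2 and Sfrp4 each passed in 2 of the 5, with log2 fold changes of 0.94 to 1.44, 1.65 to 2.11 and 1.40 to 1.69. Dkk4, Dkkl1 and Cer1 were on the list but were not analysed here.

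Genes that are induced by, or feed back on, WNT signalling were not uniformly changed. The shares over all genes were 3.03% higher and 6.02% lower. Of the 15 listed genes, Tcf7, Rnf43 and Sp5 were not analysed here. Of the 12 tested, 4 were higher in Frzb-/- mice, 0 were lower (2 at an unadjusted p under 0.05, limma), and 8 did not pass, with a median log2 fold change of 0.62. Nkd1 and Nkd2, intracellular inhibitors that bind Dishevelled, rose by 1.63 ± 0.16 (SE) and 1.21 ± 0.16 (SE). Apcdd1, a membrane inhibitor of WNT signalling, rose by 1.32 ± 0.17 (SE), and Ccn5, a matricellular protein, by 1.11 ± 0.16 (SE). Not all of their probe sets passed: 1 of 2 did for Nkd1, 2 of 4 for Nkd2 and 3 of 5 for Apcdd1, while Ccn5 had 1.

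Nkd1 had log2 values of 7.15 and 6.90 in Frzb-/- mice, 6.16 in animal 6, and 5.17, 5.53 and 5.51 in wild-type mice. Axin2, a widely used readout of canonical signalling that promotes beta-catenin breakdown, had a log2 fold change of 0.39 ± 0.13 (SE, limma adjusted p = 0.0701) and did not pass. Lef1, the transcription factor of the pathway, had a log2 fold change of -0.81 ± 0.18 (SE, limma adjusted p = 0.0184).

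The target gene Myc had -0.79 ± 0.12 (SE, limma adjusted p = 0.0049) and missed only the fold threshold. Lgr5 (-0.04), a receptor for R-spondins, and Ccnd1 (0.03), which encodes cyclin D1, lay close to 0. Znrf3 (0.62), which removes Frizzled from the membrane, Ccn4 (0.61) and the transcription factor Twist1 (0.74) were nearer the threshold. Nkd1 lost its call only without Frzb-/- animal 17 (1.75, limma adjusted p = 0.0102) and Apcdd1 only without wild-type animal 8-1 (1.27, limma adjusted p = 0.0155), while Nkd2 and Ccn5 each passed in 2 of the 5 fits that left out 1 mouse. The count of higher genes was 1 without wild-type animal 8-1 and 2 without Frzb-/- animal 14 or 17, and a call rule of adjusted p under 0.05 with no fold limit gave 7 higher and 2 lower.

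**Figure D4:**
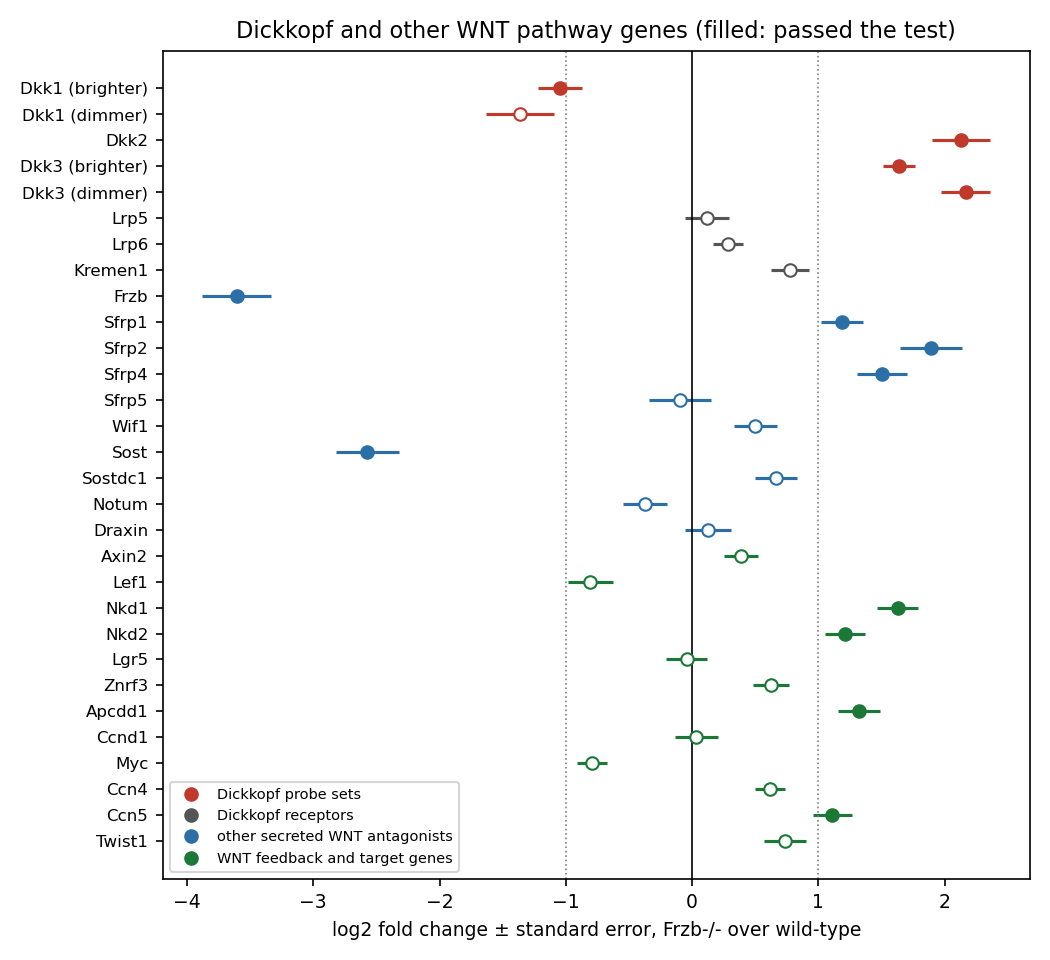
Log2 fold change of Frzb-/- over wild-type mice with its standard error (horizontal axis) for the Dickkopf probe sets and the listed WNT pathway genes, each at its brightest probe set. Filled points passed the thresholds, open points did not, and dotted lines mark a log2 fold change of 1 in either direction. Dkk1 stands with Frzb and Sost on the lower side, and Dkk2 and Dkk3 stand with Sfrp1, Sfrp2, Sfrp4, Nkd1, Nkd2, Apcdd1 and Ccn5 on the higher side.

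Markers of some cell types in the dissected piece moved together with the Dkk genes, while the chondrocyte and bone cell lists showed no common shift. Over all genes, 3.03% were higher and 6.02% were lower, with a median log2 fold change of 0.04. Fibroblast markers were higher with Dkk2 and Dkk3: 7 of 12 passed, 0 passed as lower (1 at an unadjusted p under 0.05, limma), the median log2 fold change was 1.09, and their mean level was 11.57 and 11.60 in Frzb-/- mice, 10.58 in animal 6 and 10.26 to 10.60 in wild-type mice. Pi16, named after its values were seen, had a log2 fold change in the other direction (-0.89, limma adjusted p = 0.00887) and missed only the fold threshold. The brightest genes of the list were the collagen gene Col3a1 (0.70) and the proteoglycan gene Dcn (0.75), neither of which passed at its brightest probe set, although 1 of the 2 Col3a1 probe sets passed. Smooth muscle and pericyte markers had 3 of 8 higher, a median of 1.04 and a mean level of 10.87 and 11.09 in Frzb-/- mice, 9.65 in animal 6 and 9.77 to 10.10 in wild-type mice. Their brightest genes were Rgs5, a pericyte regulator of G protein signalling, and Acta2, smooth muscle actin. Rgs5 did not pass at its brightest probe set (0.83, limma adjusted p = 0.0157) but passed at 2 of its 4 probe sets. Acta2 rose by 1.24, and 1 of its 2 probe sets passed. Markers of superficial chondrocytes and the synovial lining had 2 of 6 higher and a median of 0.87, with the brightest, Prg4, the lubricin gene, at 0.85 (limma adjusted p = 0.0164) and Clu, the clusterin gene, at 0.77 (limma adjusted p = 0.0336).

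These counts also fell in some fits that left out 1 mouse, while the median log2 fold changes moved less. Over these fits the medians were 1.00 to 1.18 for fibroblast, 0.97 to 1.11 for smooth muscle and 0.74 to 1.06 for superficial markers. Without Frzb-/- animal 17, 1 fibroblast, 0 smooth muscle and 0 superficial markers passed by limma, with 11, 7 and 6 higher at an unadjusted p under 0.05. Without wild-type animal 8-1 or without Frzb-/- animal 14, 2 fibroblast markers passed, and without animal 14 the superficial count was 1. The chondrocyte list, by contrast, had 0 of 10 past the thresholds by limma, 1 higher and 1 lower at an unadjusted p under 0.05, and a median of -0.08, with the brightest, Col2a1, the main cartilage collagen gene, at 0.03 and Comp, a cartilage matrix protein gene, at 0.24.

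Blood cell markers were lower in Frzb-/- mice, as Dkk1 was, against 6.02% of all genes. All 9 neutrophil markers were lower, with a median log2 fold change of -2.28 and a mean level of 11.2 and 10.8 in Frzb-/- mice, 13.2 in animal 6 and 13.0 to 13.5 in wild-type mice. The brightest, S100a8 and S100a9, which encode the subunits of calprotectin, had log2 fold changes of -1.47 and -1.67. All 4 erythroid markers that had a probe set were lower, with a median of -2.83 and a mean level of 8.91 and 8.39 in Frzb-/- mice, 11.7 in animal 6 and 11.3 to 11.7 in wild-type mice. The brightest were Alas2, an enzyme of heme synthesis (-2.42), and Slc4a1, the anion exchanger of red cells (-2.80, with 2 of its 3 probe sets past the thresholds). The neutrophil count was 2 without Frzb-/- animal 17 and 6 without wild-type animal 8-1, and the erythroid count was 4 in each of these fits. The part that these cell types have in the Dkk differences was not tested.

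Bone cell markers showed no common shift (median 0.03 over 8 genes), with the brightest of those tested, Col1a1 and Ibsp, at 0.27 and 0.16. The list held 10 genes, of which Bglap (osteocalcin) and Spp1 (osteopontin) were not analysed here. Shares over all genes were 3.03% higher and 6.02% lower. Of the list, 1 gene was higher, Pdpn (1.23), an early osteocyte gene, and 1 was lower, Mepe (-1.59), a late osteocyte gene. These are named after their values were seen. Mepe had log2 values of 7.86 and 7.55 in Frzb-/- mice, 8.99 in animal 6, and 9.26, 9.46 and 9.14 in wild-type mice, so like Dkk1 and Sost it was lowest in animals 14 and 17. Without Frzb-/- animal 17 neither gene passed (Mepe -1.43, limma adjusted p = 0.0114, and Pdpn 1.31, limma adjusted p = 0.0124), and Pdpn also missed without Frzb-/- animal 14 (1.16, limma adjusted p = 0.0104).

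**Figure D5:**
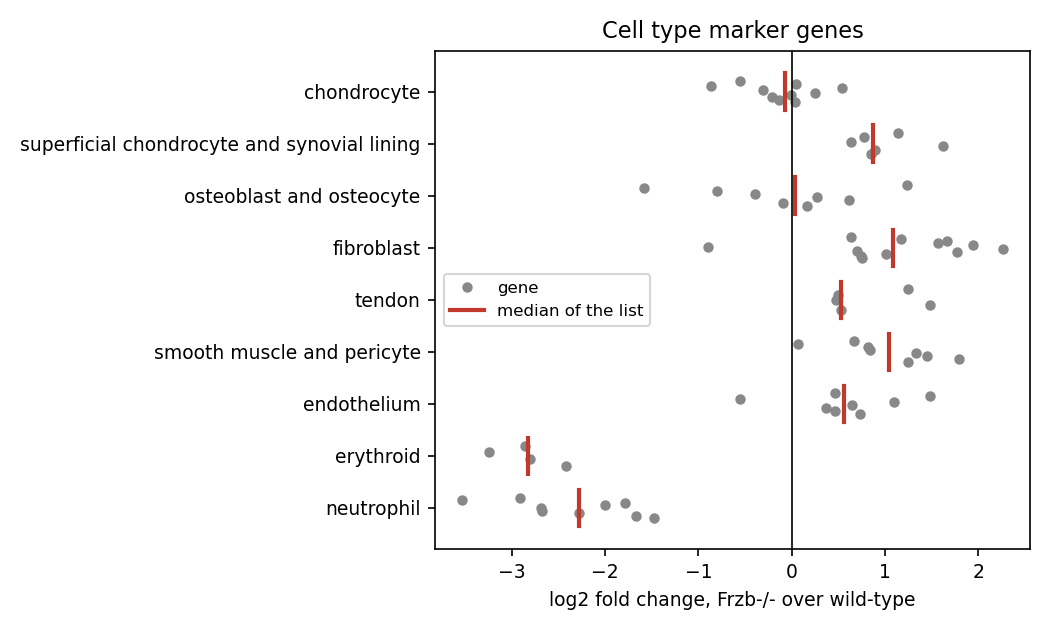
Log2 fold change of Frzb-/- over wild-type mice (horizontal axis) for each gene of the 9 cell type marker lists (points), with the median of each list (vertical bars). Fibroblast, smooth muscle and superficial chondrocyte lists have medians of 1.09, 1.04 and 0.87, the neutrophil and erythroid lists -2.28 and -2.83, and the chondrocyte list -0.08.

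The genes whose pattern over the 6 arrays lay nearest to each Dkk gene were found by the root mean square difference between log2 values, each centred on its own mean. The likeness is a description over 6 shared arrays. Genes chosen by it share the difference between the groups, so whether they pass is no separate result. For Dkk1 the nearest were Nfya, a subunit of the factor that binds CCAAT boxes (0.069), Rab5b, a GTPase of early endosomes (0.076), Slc9a7, a sodium-proton exchanger (0.079), Sinhcaf, a subunit of a histone deacetylase complex (0.085), and the kinase gene Map3k1 (0.086). Of these, Nfya (-1.02) and Slc9a7 (-1.10) passed.

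For Dkk2 the nearest genes were Nox4, an oxidase that makes hydrogen peroxide (0.130), Lrrn4cl (0.132), the ferritin receptor Scara5 (0.151), Angptl1, a secreted angiopoietin-like protein (0.156), and Matn4, a matrilin of the extracellular matrix (0.161). All 5 passed, which their choice by likeness to Dkk2 favours, with log2 fold changes from 1.88 for Scara5 to 2.35 for Lrrn4cl. For Dkk3 they were Nrg4, a ligand of the EGF receptor family (0.045), the carboxypeptidase-like Cpxm1 (0.067), the growth factor pleiotrophin, Ptn (0.071), Pamr1 (0.096), and the membrane protein Lrrc15 (0.097). All 5 passed, and Ptn, for example, had log2 values of 10.2 and 10.1 in Frzb-/- mice, 8.53 in animal 6, and 8.84, 8.46 and 8.64 in wild-type mice. No gene was among the nearest 5 of more than 1 Dkk gene.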

How the data were processed

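The authors hybridised RNA of 6 mice to Affymetrix mouse arrays and deposited log2 expression values computed by RMA (affy 1.20.0 per the submitters' processing notes). RMA corrects background, equalises the distribution of the arrays by quantiles and summarises probes, so a value is relative to the other transcripts of its array. Arrays have no read depth, and the number of mice limits precision. Differences were fitted over all 30618 probe sets with limma 3.58.1 in R 4.3.3 (lmFit, eBayes), with Benjamini-Hochberg adjustment. The study removed probe sets called absent, so the shares over all probe sets may be over a set already filtered on detection. Genes were named by the platform annotation: 25090 probe sets had a single gene, 677 several and 4851 none. A listed gene was represented by its probe set with the highest mean. The genes named are the Dkk probe sets, the genes of 3 pathway lists, the 2 brightest genes of each of 9 cell type lists, and the 5 genes nearest in pattern to each Dkk gene, with Pdpn, Mepe and Pi16 added after their values were seen. The members and lists, and the choice of animals 14 and 17, were made with earlier results of these data known. On simulated data for Frzb-/- over wild-type (30618 probe sets, 100 shifted at each size), the fit called 78 of those moved by 1.5 and 98 of those moved by 2.5, with 3 false calls. Nothing in the sources says whether mice of a group were littermates. Alternatives were the mice included, cyclic loess, array weights, trended and robust or no moderation, a filter on dim probe sets and a looser threshold. Results were tabulated and plotted in Python 3.11.15 with numpy 2.4.6, pandas 2.3.3 and matplotlib 3.10.9.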

Additional observations from a re-analysis of the deposited data

How the results depend on the processing

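Cyclic loess, array weights, trended and robust moderation and animal 6 as a group of its own left Dkk1, Dkk2 and Dkk3 past the thresholds in the same direction, and 2 of these, cyclic loess (limma adjusted p = 0.00972) and array weights (limma adjusted p = 0.00762), also brought the dimmer Dkk1 probe set past them. With all 3 mice labelled Frzb-/-, Dkk1 (-0.68), Dkk2 (1.58) and Dkk3 (1.08) lost their calls, and every count of probe sets and of antagonists and WNT targets was 0, with 3534 probe sets at an unadjusted p under 0.05. Without moderation the fold changes stayed at -1.05, 2.13 and 1.64, the calls were lost (adjusted p = 0.0881, 0.0669 and 0.0522), and every such count was 0, with 9835 probe sets at an unadjusted p under 0.05. Keeping only probe sets above the median removed Dkk2, which gave no value, and left 415 probe sets higher, 1004 lower and 2 WNT targets higher. An adjusted p under 0.05 with no fold limit gave 3592 probe sets higher, 4532 lower, 7 WNT targets higher and 2 lower, and 1 receptor. Leaving out each mouse gave -1.27 to -0.82 for Dkk1, 1.86 to 2.40 for Dkk2 and 1.59 to 1.72 for Dkk3, 97 to 570 probe sets higher, 335 to 1506 lower, 0 to 3 antagonists higher and 1 to 2 lower, and 1 to 4 WNT targets higher. Frzb, the deleted gene, was among the lower antagonists in each of these fits. The lowest probe set counts were those without Frzb-/- animal 17. The cause of these changes was not tested. No paired analysis was possible because the groups compared are different mice and nothing in the sources pairs them. With 2 Frzb-/- mice, the spread of that group is known only roughly.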

Other observations

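The remaining marker lists were higher in Frzb-/- mice at few genes. The share of all genes that were higher was 3.03%. Of 5 tendon markers 1 was higher, with a median log2 fold change of 0.52 and a mean level of 10.3 in both Frzb-/- mice, 9.29 in animal 6 and 9.24 to 9.65 in wild-type mice. The brightest were Thbs4, a matricellular thrombospondin, which rose by 1.25 (limma adjusted p = 0.00779), and Fmod, a collagen-binding proteoglycan gene, at 0.49. The tendon count was 2 without wild-type animal 6-1 and 0 without any other mouse, with 3 to 5 higher at an unadjusted p under 0.05. Of 8 endothelial markers 1 was higher, with a median of 0.56, and the brightest, Vwf and Kdr, had -0.55 and 0.37. The endothelial count was 0 without Frzb-/- animal 14, Frzb-/- animal 17 or wild-type animal 8-1, with 3 to 6 higher at an unadjusted p under 0.05 by limma.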
